A study of Homo sapiens with 8 samples.

Results

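The TRIM and RNF genes were taken by name, as symbols of TRIM or RNF followed by a number and nothing else. The rule used no measured value and gave 143 of the 59414 genes in the deposited count table, 66 TRIM and 77 RNF genes. Most encode RING-type ubiquitin ligases, but a name is not a domain, and the products of TRIM14, TRIM16, TRIM29, TRIM44 and TRIM66 lack the RING.

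The 8 libraries came from HEK293T, a line from human embryonic kidney, and every group carried the PB-TRIBE-STAMP editors, enzymes that mark RNA near processing bodies (P-bodies). The TRIBE enzyme turns adenosine into inosine (A-to-I), and the STAMP enzyme turns cytidine into uridine (C-to-U). There were 4 groups of 2 libraries: sorted P-bodies (total RNA by label, 50 ng of input), set against cytosol (cytoplasmic RNA, 100 ng), and cells given siEDC4, an siRNA against the decapping scaffold EDC4, set against cells given siNC, a control siRNA (both polyA RNA, 500 ng). Fraction, RNA type and input moved together in the sort and cannot be told apart. No library without editors was used here, and the labels do not give separate cultures for the libraries of a group, so p-values measure a spread that may be technical.

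RING ligases bring a ubiquitin-charged E2 enzyme to a substrate. Tripartite motif (TRIM) proteins set a RING, B-boxes and a coiled coil ahead of a variable tail, and include transcriptional corepressors, antiviral factors and the RNA-binding NHL proteins. The RING finger (RNF) name covers many unrelated ligases, among them histone ligases, ligases of ribosome quality control and transmembrane proteins of the endoplasmic reticulum and endosomes. P-bodies are cytoplasmic granules without a membrane that hold repressed mRNAs with decapping and silencing proteins, and in human cells they are known to gather AU-rich mRNAs.

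The sort split the members along base composition, and pieces of coding sequence from both ends show it in letters, with exceptions given below. Each run holds the middle 30 codons (90 bases) of the coding part, 5′ to 3′, from GENCODE v29 transcripts (hg38). A capital marks G or C as the third base of a codon. The first 4 had the largest rises in sorted P-bodies among members at a mean of 10 CPM (CPM is a gene's count as a share of its library's total, on a common scale) or more in a group: TRIM23 lies on chromosome 5 at 65589690 to 65625975, RNF6 on 13 at 26132115 to 26222314 and TRIM36 on 5 at 115124762 to 115180546, all on the minus strand, and TRIM2 on chromosome 4 at 153152163 to 153339319 on the plus strand.
TRIM23: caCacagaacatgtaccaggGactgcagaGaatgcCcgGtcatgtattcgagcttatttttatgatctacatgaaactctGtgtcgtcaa
RNF6: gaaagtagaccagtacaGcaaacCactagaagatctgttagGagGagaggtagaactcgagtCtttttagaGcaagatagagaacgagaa
TRIM2: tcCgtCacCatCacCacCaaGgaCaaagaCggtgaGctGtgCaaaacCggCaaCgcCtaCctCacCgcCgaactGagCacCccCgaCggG
TRIM36: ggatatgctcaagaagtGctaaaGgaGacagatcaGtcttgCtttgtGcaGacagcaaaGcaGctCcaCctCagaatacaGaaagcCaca
The other 4 had the largest falls, and all lie on the plus strand: RNF167 on chromosome 17 at 4940008 to 4945222, RNF187 on 1 at 228487382 to 228496188, RNF5 on 6 at 32178405 to 32180793 and RNF181 on 2 at 85595725 to 85597708.
RNF167: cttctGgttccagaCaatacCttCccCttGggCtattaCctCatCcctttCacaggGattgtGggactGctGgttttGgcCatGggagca
RNF187: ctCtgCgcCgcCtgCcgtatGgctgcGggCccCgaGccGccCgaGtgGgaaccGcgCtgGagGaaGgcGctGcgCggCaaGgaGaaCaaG
RNF5: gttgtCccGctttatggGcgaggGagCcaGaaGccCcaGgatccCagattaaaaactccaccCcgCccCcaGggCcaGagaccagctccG
RNF181: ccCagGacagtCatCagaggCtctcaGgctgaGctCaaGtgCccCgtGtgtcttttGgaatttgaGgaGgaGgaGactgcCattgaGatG
Of the 30 codons shown, 6 end in G or C in TRIM23, 6 in RNF6 and 14 in TRIM36. The counts are 18 in RNF167, 27 in RNF187, 17 in RNF5 and 20 in RNF181. TRIM2, with 26, is an exception among the rises. Over its whole coding part 61.8% of codons end in G or C, against a median of 59.3% over all protein-coding genes tested. Among the falls, RNF167 (58.4%) and RNF5 (57.5%) lie under that median over their whole coding parts. RNF187 (87.7%) and RNF181 (64.3%) lie over it, and TRIM23 (34.3%), RNF6 (31.5%) and TRIM36 (37.3%) under it.

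Gene counts of the sort summed to 21186963 to 23716926 per library. Markers of HEK293T cells summed to 979.6 to 1103 CPM in the sorted libraries, against 949.8 to 992 CPM in cytosol, after scaling by TMM, a correction for library composition. Blood markers summed to 0.908 to 1.201 CPM in the sorted libraries, against 1.59 to 2.0 CPM in cytosol, with CD3E at 0, and 4 fibroblast markers to 11.4 to 14.1 CPM in the sorted libraries, against 22.4 to 25.2 CPM in cytosol; the part of these in the results was not tested. The 2 sorted libraries differed more from each other than the cytosolic ones did, with a chi-square per degree of freedom of 22.5 against 3. The libraries are bulk pools, in which fewer P-bodies holding an mRNA and less of it per P-body cannot be told apart.

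The sort asked which mRNAs are held in P-bodies relative to the cytosol. Of the 143 members, 110 passed the filter on low counts, and 36 of these rose in sorted P-bodies and 40 fell, each with an adjusted p below 0.05 (edgeR's quasi-likelihood test with Benjamini-Hochberg adjustment). That was 32.7% and 36.4%, against 28.8% higher and 29.0% lower of all 18745 genes tested. The members thus spread both ways, each share a few points above the background, with a median log2 fold change of -0.01 against -0.03 over all genes. All 76 called members had the same sign in both batches, the pairs of sorted and cytosolic libraries that share a batch number. The calls came from these same libraries, so this largely follows from them and adds no support. Of the 36 higher calls 8 and of the 40 lower calls 19 were lost in at least 1 alternative fit, all of these without a cytosolic library. Without Cytosol 1, 28 members were higher and 27 lower, against 20.4% and 20.6% of all genes; without Cytosol 2, 31 were higher and 23 lower, against 21.2% and 20.1%.

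The other 33 members, 22 TRIM and 11 RNF genes, had too few counts to test. Of these, TRIM48, TRIM51, TRIM60, TRIM61, TRIM64, TRIM77, RNF39 and RNF186 had no count in the 4 libraries. With 3 counts as the limit for 0, that allows up to 0.136 and 0.157 CPM in the sorted libraries and 0.123 and 0.12 CPM in the cytosolic ones.

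Between the name families, 12 TRIM genes were higher and 16 lower of 44 tested, and 24 RNF genes were higher and 24 lower of 66. The median log2 fold change was -0.15 for TRIM and 0.09 for RNF genes (-0.35 and -0.11 when scaled by library size alone, where the median of all genes was -0.23), a difference of -0.24 (-0.24 by library size). The difference was -0.12 in batch 1 and -0.33 in batch 2. It was -0.40 without Sorted-Pbodies 1 and -0.06 without Sorted-Pbodies 2, so its size rested on which sorted library was used. The members together reached 5644 and 5985 CPM in sorted P-bodies, against 4853 and 4996 CPM in cytosol. The TRIM genes held 1993 and 2138 CPM of that in sorted P-bodies, against 1724 and 1774 CPM in cytosol, and the RNF genes 3651 and 3847 CPM, against 3129 and 3222 CPM. Both families were thus higher in sum on this scale in each sorted library than in each cytosolic one, while their calls ran both ways. The TMM factors were 0.960 and 0.905 in the sorted libraries, against 1.090 and 1.056 in cytosol. A lower factor gives every gene of a library a higher CPM. As counts, members held 124337 of 22978408 and 114576 of 21186963 in the sorted libraries, against 118665 of 22459040 and 124930 of 23716926 in cytosol.

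**Figure D1:**
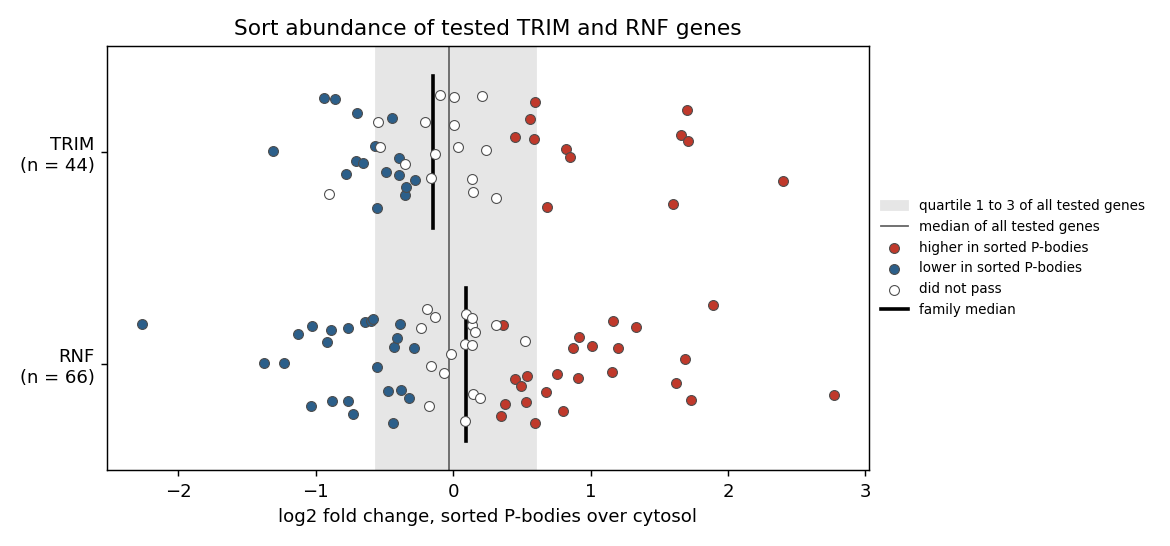
Log2 fold change of sorted P-bodies over cytosol (horizontal axis) of each tested TRIM gene (n = 44) and RNF gene (n = 66), coloured by call, with points spread vertically for legibility. The grey band spans quartile 1 to 3 of all tested genes, the thin line is their median and the thick bars are the family medians, -0.15 and 0.09; both families lie on either side of 0.

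The largest rise among members at 10 CPM or more was that of TRIM23, a RING ligase that carries a GTPase domain of the ARF type. It stood at 101 and 129.9 CPM in sorted P-bodies, against 20.9 and 22.8 CPM in cytosol, a log2 fold change with its SE of 2.40 ± 0.14 (adjusted p = 3e-06 by edgeR). Both sorted libraries lay far above both cytosolic ones. RNF6, a ligase known to act on the androgen receptor, was at 65.4 and 111 CPM in sorted P-bodies, against 21.6 and 25.9 CPM in cytosol (1.89 ± 0.22), with the 2 sorted libraries further apart than the cytosolic ones. RNF138, which acts at DNA ends in break repair, was at 125 and 156 CPM in sorted P-bodies, against 42.6 and 44.4 CPM in cytosol (1.69 ± 0.13). RNF217, a RING-between-RING ligase of the iron exporter ferroportin, was at 90.8 and 140.1 CPM in sorted P-bodies, against 38.04 and 37.03 CPM in cytosol (1.62 ± 0.18). In none of the 8 largest rises did a sorted library overlap a cytosolic one, which largely follows from picking called members by the size of their rise.

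At the other end stood RNF167, a membrane ligase of endosomes and lysosomes, at 39.04 and 34.6 CPM in sorted P-bodies, against 92.6 and 98.6 CPM in cytosol, a log2 fold change of -1.38 ± 0.11 (adjusted p = 8.5e-06 by edgeR). RNF187, known as a coactivator of c-Jun, was at 40.04 and 33.9 CPM in sorted P-bodies, against 83.6 and 89.8 CPM in cytosol (-1.23 ± 0.12). Neither gene's groups overlapped, which largely follows from how they were picked. RNF5, a ligase of the endoplasmic reticulum, was at 17.2 and 12.8 CPM in sorted P-bodies, against 29.5 and 36.3 CPM in cytosol (-1.13 ± 0.16), and is uncertain because a pseudogene copy can share its reads. RNF181 fell by 1.04, RNF126, which works with BAG6 in protein quality control, by 1.03 and RNF114 by 0.92 on the log2 scale.

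**Figure D2:**
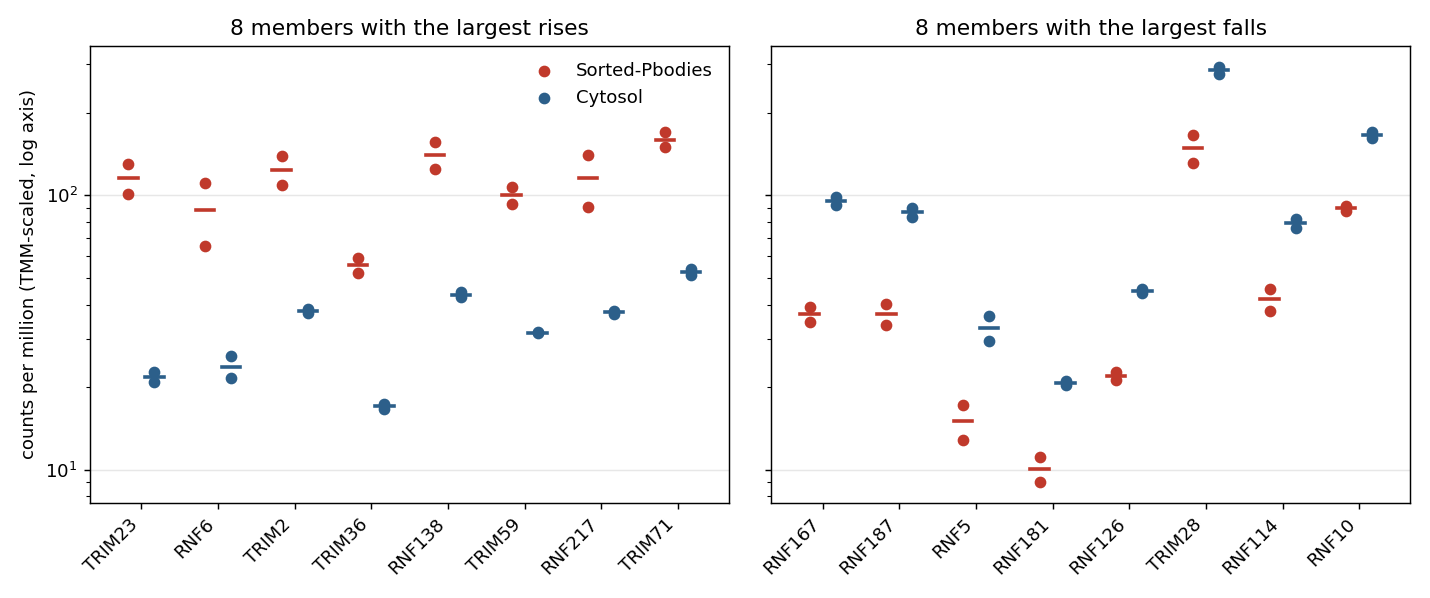
CPM (log axis) in each library for the 8 members with the largest rises (left) and the 8 with the largest falls (right) among called members at 10 CPM or more. Points are libraries and bars are means of 2, with sorted P-bodies left of cytosol for each gene. No sorted library overlaps a cytosolic one in these genes, which largely follows from how they were picked.

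Some low members outside that rule had larger fitted changes. RNF208 was at 0.726 and 0.783 CPM in sorted P-bodies, against 3.56 and 3.72 CPM in cytosol (-2.26 ± 0.27). RNF133 was at 0.908 and 1.097 CPM in sorted P-bodies, against 0.0818 and 0.20 CPM in cytosol (2.77 ± 0.52), and RNF148 had a log2 fold change of 1.73, a call lost by DESeq2 (adjusted p = 0.13) and without Sorted-Pbodies 2 or Cytosol 1. RNF133 and RNF148 both lie inside CADPS2 on the same strand and are uncertain. Of all members, 17 are overlapped by another protein-coding gene on their own strand and 36 on the opposite strand, and the strand setting of the counting is not given in the sources used here. TRIM73 and TRIM74, near-identical copies, had -0.10 and -0.53, did not pass and are uncertain.

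Among the corepressors, whose proteins carry a PHD finger and a bromodomain, 1 of 4 tested rose and 2 fell. Of all genes tested, 28.8% rose and 29.0% fell, the shares behind each list that follows. TRIM33, known from SMAD signalling, was at 202 and 282 CPM in sorted P-bodies, against 129 and 139.5 CPM in cytosol (0.85 ± 0.15, adjusted p = 0.0011, edgeR). TRIM28, the corepressor of KRAB zinc finger proteins, was at 167 and 131 CPM in sorted P-bodies, against 277 and 294 CPM in cytosol (-0.94 ± 0.13, adjusted p = 0.00023, edgeR). TRIM33 and TRIM28 thus stood at opposite ends, each without overlap of the groups. TRIM66 fell by 0.71. TRIM24, a coregulator of nuclear receptors, did not pass (0.31 ± 0.13, adjusted p = 0.065, edgeR); it passed with the batch as a block (adjusted p = 0.031, edgeR) and without Sorted-Pbodies 1 (0.47, adjusted p = 1.4e-09, edgeR).

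Of the 4 NHL genes, whose proteins end in a propeller that can bind RNA, 3 rose and 1 fell, with a median log2 fold change of 1.21. TRIM71, a repressor of mRNAs in embryonic cells, was at 149.9 and 169.5 CPM in sorted P-bodies, against 54.03 and 51.3 CPM in cytosol (1.60 ± 0.11, adjusted p = 5.5e-06, edgeR). TRIM2, a ligase known from neurons, was at 109 and 139.5 CPM in sorted P-bodies, against 37.4 and 38.7 CPM in cytosol (1.71 ± 0.13). TRIM32 rose by 0.82. TRIM3, close in structure to TRIM2, went the other way, at 11.6 and 11.4 CPM in sorted P-bodies, against 16.7 and 15.5 CPM in cytosol (-0.49 ± 0.12), a call lost without Cytosol 1 (adjusted p = 0.076, edgeR).

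Of 9 antiviral TRIM genes tested of 11 listed, 2 rose and 4 fell, with a median of -0.28. TRIM21, the cytosolic antibody receptor, rose by 0.69 and TRIM38 by 0.56, while TRIM14 fell by 0.86 and TRIM65 by 0.45. TRIM25, a ligase of RIG-I signalling, was at 36.5 and 35.7 CPM in sorted P-bodies, against 44.5 and 42.9 CPM in cytosol (-0.28 ± 0.10), and TRIM5, the capsid restriction factor, at 9.76 and 9.04 CPM in sorted P-bodies, against 11.9 and 12.9 CPM in cytosol (-0.40 ± 0.13). Both calls were lost by DESeq2 (adjusted p = 0.14 and 0.16) and without either cytosolic library, and that of TRIM65 was lost without Cytosol 2 (adjusted p = 0.058, edgeR), which left 1 lower, TRIM14. TRIM5 spans other annotated genes and is uncertain. TRIM6, TRIM26 and TRIM56 had 0.01, -0.14 and -0.55 and did not pass; TRIM56 passed with the batch as a block (adjusted p = 0.031, edgeR).

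Both membrane-anchored TRIM genes rose, TRIM59 by 1.66 and TRIM13 by 0.45. The call of TRIM13 was lost when scaled by library size alone (adjusted p = 0.078, edgeR) and without Cytosol 1 (adjusted p = 0.16, edgeR). Of 4 cytoskeleton genes tested, TRIM36, a microtubule-linked ligase, rose by 1.70 and TRIM9, known from axon guidance, by 0.59. TRIM46, a microtubule organiser of axons, fell by 0.78, and TRIM54 did not pass (-0.90 ± 0.45). Of the 4 TRIM genes without a RING that were tested, TRIM14, TRIM66 and TRIM44 fell, the last by 0.39 with its call lost without either cytosolic library, and TRIM16 had -0.21 and did not pass.

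The RNF genes of chromatin and DNA damage mostly rose, 7 of 9 with none called lower (1, RNF8, when scaled by library size alone or without Sorted-Pbodies 1), or 77.8% against 28.8% of all genes, with a median log2 fold change of 0.54. RNF20 and RNF40 form the ligase of histone H2B. RNF20 was at 156 and 189.6 CPM in sorted P-bodies, against 77.5 and 76.98 CPM in cytosol (1.16 ± 0.12, adjusted p = 3.7e-05, edgeR). RNF40 was at 357 and 328 CPM in sorted P-bodies, against 242 and 245 CPM in cytosol (0.49 ± 0.11, adjusted p = 0.0034, edgeR), and its call was lost without Cytosol 1 or Cytosol 2 (adjusted p = 0.12 and 0.097, edgeR). The partners of one dimer thus rose by different amounts; the difference was not tested.

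RNF2, the catalytic subunit of Polycomb complexes that mark histone H2A, was at 134 and 155 CPM in sorted P-bodies, against 82.04 and 89.4 CPM in cytosol (0.75 ± 0.12). RNF8 and RNF168 act in turn on chromatin at DNA breaks. RNF168 was at 66.2 and 72.8 CPM in sorted P-bodies, against 47.1 and 48.8 CPM in cytosol (0.54 ± 0.10), and RNF8, at 53.2 and 50.5 CPM in sorted P-bodies, against 56.9 and 56.8 CPM in cytosol, did not pass (-0.13 ± 0.10, adjusted p = 0.27, edgeR), though it did without Sorted-Pbodies 1 (adjusted p = 0.037, edgeR). The ligases of SUMO-bearing proteins, RNF4 and RNF111, rose by 0.53 and 0.88. The call of RNF4 was lost without Cytosol 1 (adjusted p = 0.064, edgeR), so that 5 of the 9 were called without that library. RNF169, a reader of marks at breaks, had -0.02 and did not pass.

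The 3 genes of ribosome quality control split. RNF14, which acts with RNF25 on factors trapped on ribosomes, was at 86.8 and 88.5 CPM in sorted P-bodies, against 49.6 and 50.95 CPM in cytosol (0.80 ± 0.10). RNF25 was at 11.98 and 10.2 CPM in sorted P-bodies, against 15.5 and 18.2 CPM in cytosol (-0.60 ± 0.14), a call lost without Cytosol 2 (adjusted p = 0.053, edgeR). RNF10, which ubiquitinates proteins of the small ribosomal subunit, was at 91.8 and 87.5 CPM in sorted P-bodies, against 162 and 169.7 CPM in cytosol (-0.89 ± 0.10). Partners in this pathway therefore had opposite signs. Of the 4 RING-between-RING genes in the rule, RNF217 and RNF14 rose, and RNF216 and RNF31 had 0.14 and -0.07 and did not pass.

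Of 21 transmembrane RNF genes tested, 7 rose and 8 fell (33.3% and 38.1%, against 28.8% and 29.0% of all genes), with a median of 0.14; without Cytosol 1, 5 were lower. RNF182 rose by 1.33, RNF152, of lysosomes, by 1.20, RNF139, of the endoplasmic reticulum, by 1.15 and RNF13, of endosomes, by 1.01. RNF26 and RNF185, both of the endoplasmic reticulum, fell by 0.77 and 0.73. RNF43, which removes Wnt receptors from the membrane, was at 5.54 and 7.0 CPM in sorted P-bodies, against 7.12 and 6.998 CPM in cytosol and did not pass (-0.18 ± 0.17).

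In signalling, RNF146, which targets axin in the Wnt pathway, was at 65.1 and 74.1 CPM in sorted P-bodies, against 35.9 and 38.3 CPM in cytosol (0.91 ± 0.11), and RNF41 had 0.14 and did not pass. RNF213, a giant ligase with AAA domains known from vascular disease, was at 314 and 292 CPM in sorted P-bodies, against 200.1 and 200.3 CPM in cytosol (0.60 ± 0.11, adjusted p = 0.001, edgeR). RNF135, a ligase of RIG-I, fell by 0.43, a call lost by DESeq2 (adjusted p = 0.1) and without Cytosol 2 (adjusted p = 0.14, edgeR). RNF7, a RING subunit of cullin ligases, was at 22.9 and 20.9 CPM in sorted P-bodies, against 26.5 and 26.8 CPM in cytosol (-0.28 ± 0.11, adjusted p = 0.044, edgeR), a call lost with the batch as a block (adjusted p = 0.052, edgeR), by DESeq2 (adjusted p = 0.2) and without either cytosolic library. Members in none of these role lists had 8 higher and 20 lower of 44 (18.2% and 45.5%, against 28.8% and 29.0% of all genes) and a median of -0.26. Of these, 5 were higher and 14 lower without Cytosol 1, 5 and 11 without Cytosol 2, and 5 and 22 by library size.

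Levels between genes were compared as CPM per kilobase of gene model. TRIM28 had the highest level in cytosol, with 34.6 ± 5.82 in the sorted libraries, against 66.3 ± 2.85 in cytosol (SD, n = 2). RNF40 came next in cytosol, with 54.5 ± 3.29 in the sorted libraries, against 38.7 ± 0.382 in cytosol. RNF167 had 13.4 ± 1.14 in the sorted libraries, against 34.8 ± 1.54 in cytosol, and RNF5 had 13.3 ± 2.703 in the sorted libraries, against 29.2 ± 4.28 in cytosol. In cytosol the levels of RNF167 and RNF5 lay closer than the sum of their SDs, while RNF40 lay above RNF167 and TRIM28 above RNF40 by more than theirs. In sorted P-bodies RNF40 stood above TRIM28. The next TRIM genes in cytosol were TRIM65, with 13.1 ± 0.801 in the sorted libraries, against 17.8 ± 0.135 in cytosol, and TRIM27, with 13.1 ± 1.33 in the sorted libraries, against 16.5 ± 0.2197 in cytosol.

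Of the enzymes that feed RING ligases, 9 of 35 E2 enzymes rose and 22 fell (25.7% and 62.9%, against 28.8% and 29.0% of all genes), with a median log2 fold change of -0.52. BIRC6, an E2 and ligase in a single giant protein, rose by 2.48 and UBE2W by 2.24, and UBE2L6, an E2 of the ubiquitin-like ISG15, fell by 1.76. Of 9 E1 enzymes, 4 rose (44.4%; 2 without Cytosol 1), among them UBA6 by 1.53 and UBA3 by 0.83, and SAE1, of the SUMO pathway, fell by 0.76. Of 61 RING genes with other names, 31 rose and 17 fell (50.8% and 27.9%), with a median of 0.35; RC3H2, RCHY1 and BIRC2, with the smallest p, rose by 1.89, 1.65 and 1.47.

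The direction of a member went with the base composition of its transcript. Across the 109 tested members with an annotated 3′ UTR, the log2 fold change had a Spearman correlation of -0.69 with its G + C content. The correlation was -0.71 over 44 TRIM genes, -0.66 over 65 RNF genes and -0.51 over 13415 protein-coding genes. These are descriptions across genes that share the same 4 libraries, not replicates. Of 53 members with a 3′ UTR under the median of all protein-coding genes tested (42.2% G + C), 31 were higher and 6 lower. Of 56 at or over it, 5 were higher and 33 lower. Over all protein-coding genes the shares were 54.8% higher and 17.6% lower under it, and 11.2% and 49.05% at or over it.

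The 5 that rose from the GC-rich side were RNF40 (61.8% G + C), RNF123 (53.6%), RNF4 (48.6%), RNF213 (48.1%) and TRIM21 (44.1%). The 6 that fell from the AU-rich side were RNF149 (32.9%), RNF7 (37.1%), TRIM5 (38.1%), TRIM58 (38.9%), TRIM44 (40.8%) and RNF115 (41.6%). These exceptions were named after their values were seen, and of them RNF213, TRIM21 and TRIM58 kept their calls in every alternative fit. TRIM71 joined a coding part with G or C at 79.2% of codon ends to a 3′ UTR of 39.95% G + C, and RNF217 one with 65.8% to a 3′ UTR of 31.9%. RNF187 has no annotated 3′ UTR and was left out.

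Codon ends alone gave a correlation of -0.57 over 110 members, the G + C content of the coding part -0.63 and transcript length 0.34, against 0.42 for length over all protein-coding genes. The median 3′ UTR held 45.5% G + C in TRIM and 41.9% in RNF genes. The median transcript was 4154 bases long among members that rose and 2964 among those that fell. The motif ATTTA, the core of AU-rich elements, occurred a median of 7 times on the transcript strand of the 3′ UTR in members that rose and 1 in those that fell, whose 3′ UTRs were shorter.

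**Figure D3:**
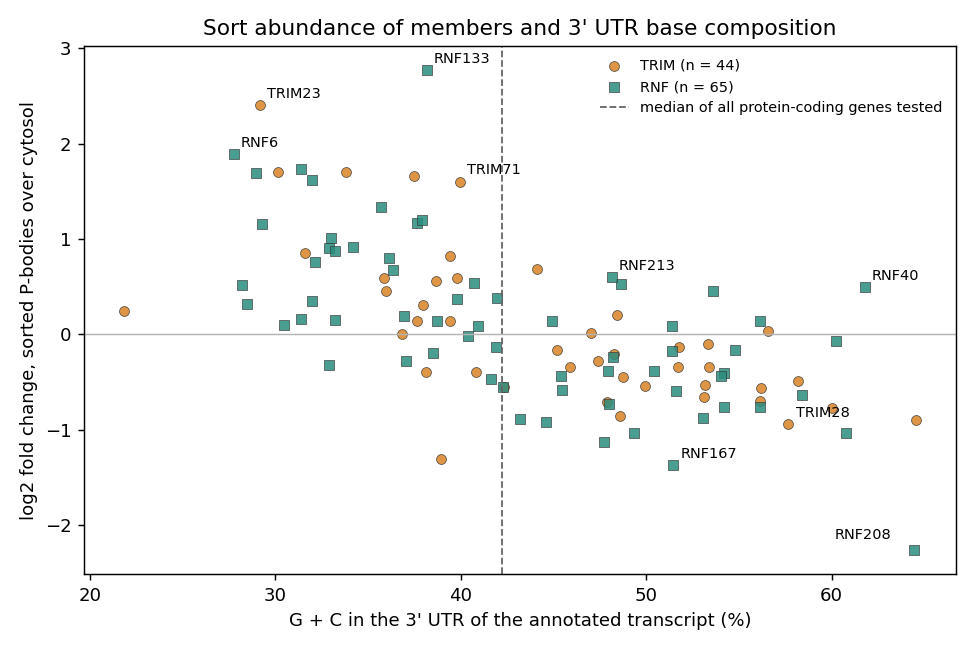
Log2 fold change of sorted P-bodies over cytosol (vertical axis) against the percentage of G + C in the annotated 3′ UTR (horizontal axis) for 44 TRIM and 65 RNF genes, 1 point a gene. The dashed line is the median of all protein-coding genes tested, 42.2%; points run from upper left to lower right, with RNF40 and RNF213 above 0 on the right.

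Edited bases gave a second readout of the same sort libraries. The editing score is the deposited share of a gene's reads that are edited, given here in percent. Of the members, 102 were listed for A-to-I, with median scores of 8.26% and 8.95% in Sorted-Pbodies 1 and 2, against 3.75% and 3.32% in Cytosol 1 and 2. All listed genes had medians of 6.82% and 6.97% in the sorted libraries, against 2.74% and 2.63% in the cytosolic ones. Editing was thus higher in sorted P-bodies over members and over all genes alike.

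Of 99 members tested for A-to-I editing, 74 had a higher edited share in sorted P-bodies and none a lower one (edgeR on edited and unedited reads, adjusted p under 0.05). Of all 11303 genes tested, 73.5% were higher and 1.08% lower (74.6% in all), so the members were at the background. At an unadjusted p under 0.05, 76 members passed, against 8612 of all 11303 genes (edgeR). On log2 scores, limma called 2 members lower, TRIM7 and RNF207. Higher calls were 28 of 40 TRIM and 46 of 59 RNF genes. The median ratio of scores was 2.25 for TRIM and 2.67 for RNF genes, against 2.58 over all genes, with 3 edited reads over a group standing in for 0.

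For C-to-U, 101 members were listed, with median scores of 2.35% and 3.09% in sorted P-bodies, against 0.595% and 0.606% in cytosol. Of 97 tested, 63 were higher and none lower (edgeR), against 68.0% higher and 0.292% lower of all 10613 genes (68.3% in all). At an unadjusted p under 0.05, 66 passed, against 7529 of all 10613 genes (edgeR). On log2 scores, limma called 4 members lower, TRIM7, TRIM58, RNF165 and RNF227. By family 22 of 40 TRIM and 41 of 57 RNF genes were higher, with median ratios of 3.98 and 6.29, against 5.04 over all genes. RNF genes thus had the larger ratios with both editors; no test was made of the families.

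RNF128, a transmembrane ligase known from T cells, had the largest A-to-I odds ratio among called members. Its edited reads were 34 of 409 and 34 of 333 in sorted P-bodies, against 2 of 412 and 3 of 500 in cytosol, scores of 8.31% and 10.2%, against 0.485% and 0.60%. The pooled score was higher by 16.7 times (95% interval 6.82 to 53.1), and adjusted p was 1.3e-06 (edgeR). Intervals here are exact and cover counting error only. The abundance of RNF128 did not pass (log2 fold change 0.32 ± 0.12, adjusted p = 0.051, edgeR) but did with the batch as a block (adjusted p = 0.026, edgeR).

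Of the A-to-I higher calls of members, 14 were lost in at least 1 alternative other than centring, and of the C-to-U ones 14.

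The next A-to-I members were TRIM4, RNF145, RNF41 and TRIM45. TRIM4, a ligase of antiviral signalling, had 6.92% and 2.81% in sorted P-bodies, against 0.976% and 0.237% in cytosol, a call lost without Sorted-Pbodies 1 (adjusted p = 0.052, edgeR). RNF145, a sterol-responsive ligase of the endoplasmic reticulum, had 6.14% and 6.5% in sorted P-bodies, against 1.53% and 0.593% in cytosol. RNF41, a ligase of growth factor receptors, had 10.3% and 10.3% in sorted P-bodies, against 1.96% and 1.67% in cytosol, and TRIM45 had 4.92% and 8.21%, against 1.37% and 0.837%. In each of these the sorted scores lay above both cytosolic ones, which largely follows from picking called members by the size of their rise. In abundance, TRIM45 fell by 0.56 and the other 3 did not pass.

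Among C-to-U scores, RNF5 and TRIM27 had no edited read in cytosol. RNF5 had 5 of 273 and 6 of 159 reads edited in sorted P-bodies, against 0 of 620 and 0 of 753 in cytosol. With 3 reads over the group as the limit for 0, its score was at least 11.7-fold higher in sorted P-bodies. TRIM27, a ligase that works with MAGE proteins, had 9 of 1728 and 7 of 1214, against 0 of 2698 and 0 of 2746, and by the same limit was at least 9.87-fold higher. Both rest on few edited reads, and RNF5 is uncertain as said above. A gene needed an edited read in 2 libraries to be tested. RNF5 and TRIM27 met this through the sorted libraries alone, so their 0 in cytosol adds no support. Their calls were lost with the libraries centred (adjusted p = 0.051 and 0.054, edgeR). RNF114 had 3.57% and 4.56% in sorted P-bodies, against 0% and 0.174% in cytosol, higher by 43.6 times (95% interval 14.04 to 219). RNF34, a ligase of caspases, had 4.402% and 5.44% in sorted P-bodies, against 0.175% and 0.165% in cytosol, higher by 28.8 times (95% interval 10.9 to 108). RNF126 had 1.43% and 2.61% in sorted P-bodies, against 0.111% and 0% in cytosol, where 1 cytosolic read was edited. RNF5, RNF114 and RNF126 were also among the 8 largest falls in abundance, so in these genes a lower level and a higher edited share stood side by side. Among listed members, the A-to-I share was called higher in 33 of 34 that rose in abundance and 24 of 40 that fell. For C-to-U it was 30 of 34 and 18 of 40. Of all genes tested, 73.5% were higher for A-to-I and 68.0% for C-to-U. The split by abundance call was not made over all genes, so it is not read as particular to the members.

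Of the 36 members that rose in abundance, 34 were listed for each editor, and all of these had edited reads in both fractions. So did 38 of 40 members that fell for A-to-I and 32 of 40 for C-to-U. No such count was made over all genes, so these are not read as a trait of the members. TRIM2 had C-to-U scores of 27.7% and 28.5% in sorted P-bodies, against 11.2% and 8.32% in cytosol, and TRIM23 had 12.4% and 12.9%, against 4.93% and 5.77%. TRIM71 had A-to-I scores of 18.01% and 20.98% in sorted P-bodies, against 11.8% and 9.43% in cytosol, and C-to-U scores of 10.1% and 10.9%, against 7.75% and 6.27%, a call (adjusted p = 0.032) lost with the batch as a block (adjusted p = 0.088, edgeR) and without either sorted library or Cytosol 2. RNF2 had C-to-U scores of 17.8% and 16.9% in sorted P-bodies, against 1.91% and 0.833% in cytosol, higher by 12.9 times (95% interval 9.59 to 17.9). TRIM71 thus changed by a smaller factor than RNF2, from a higher score in cytosol.

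The abundant TRIM28 and RNF40 had few C-to-U edits. TRIM28 had 0 of 2577 and 0 of 1579 reads edited in sorted P-bodies, against 1 of 5281 and 2 of 5667 in cytosol, and did not pass. RNF40 had scores of 0.0376% and 0.0768% in sorted P-bodies, against 0.0411% and 0.0397% in cytosol and did not pass. RNF213, with 0.341% and 0.3797%, against 0.306% and 0.3005%, did not pass either. For A-to-I all 3 were higher in sorted P-bodies by edgeR, TRIM28 with 3.18% and 1.89%, against 1.08% and 0.9702%, RNF40 with 7.26% and 7.67%, against 4.59% and 4.82% and RNF213 with 3.72% and 4.07%, against 2.44% and 2.54%. The calls of TRIM28 and RNF213 were lost with limma (adjusted p = 0.067 and 0.084).

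With each library centred on the median log odds of its genes, which removes the shift of the whole table, 11 members were higher and 10 lower for A-to-I, against 16.9% and 12.4% of all genes (edgeR). For C-to-U 8 were higher and 3 lower, against 13.7% and 3.62%. RNF2 and RNF114 were higher for both editors, with centred log2 odds ratios of 0.60 and 0.75 for A-to-I and 1.79 and 3.32 for C-to-U. RNF213 was lower for both (-0.75 and -1.90), and TRIM71 was lower for C-to-U (-1.52, against 0.64 uncentred). TRIM26 for A-to-I and TRIM44 for C-to-U were the only TRIM genes among the higher calls.

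**Figure D4:**
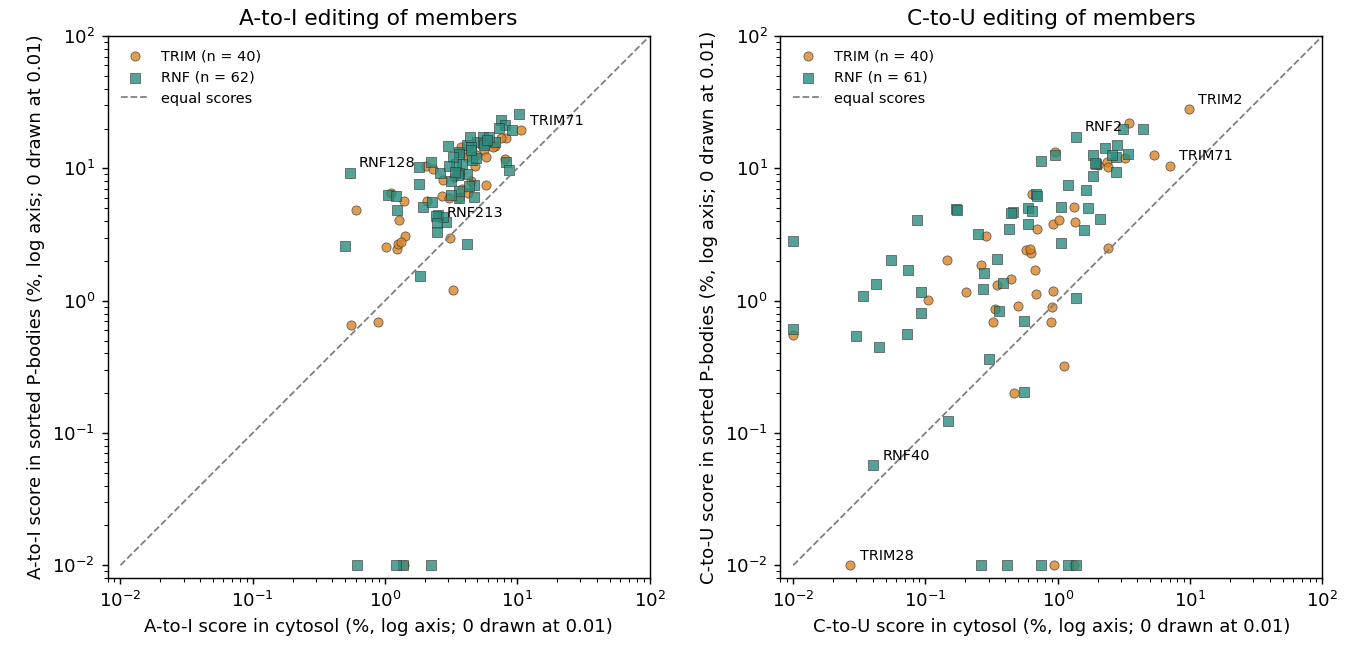
Editing score of each listed member in sorted P-bodies (vertical axis) and cytosol (horizontal axis), in percent on log axes, each the mean of 2 libraries, for A-to-I (left) and C-to-U (right); scores of 0 are drawn at 0.01. Most points lie above the dashed line of equal scores, with TRIM2 and RNF2 near the top for C-to-U and 8 members at 0 in sorted P-bodies.

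The knockdown asked how mRNAs and their edits respond to loss of EDC4. EDC4 itself was at 40.3 and 32.6 CPM in siEDC4 1 and 2, against 109.8 and 106 CPM in siNC 1 and 2 (log2 fold change -1.56 ± 0.14, adjusted p = 2.6e-25, edgeR). Reads came from the A-to-I table, which lists 10643 genes, and summed to 5697417 to 6251787 per library. The siNC libraries differed by about the sampling noise (chi-square per degree of freedom 1.02, chi-square p = 0.062, and 0.047 in the C-to-U table) and were counted as 1 sample, their reads summed; for siEDC4 the value was 3.46. This is a choice, since the test does not show that they are 1 library, and the spread then came from the siEDC4 libraries alone. Edited reads of the siNC libraries differed more (1.3 for A-to-I and 1.31 for C-to-U) but were summed as well.

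Of 95 members tested, 37 TRIM and 58 RNF genes, none was higher and 1 lower (edgeR), against 0.432% higher and 0.132% lower of all 10642 genes. At an unadjusted p under 0.05, 2 members passed, against 7.39% of all genes (edgeR), and DESeq2 called no member. The one call was RNF187, at 170 and 237 CPM in siEDC4 1 and 2, against 276 and 284 CPM in siNC 1 and 2 (-0.46 ± 0.11, adjusted p = 0.011, edgeR). Both siEDC4 libraries were below both siNC libraries, by unequal amounts, with a log2 fold change of -0.24 without siEDC4 1 and -0.72 without siEDC4 2. The call was lost with the siNC libraries kept apart (adjusted p = 0.06, edgeR) and by DESeq2 (adjusted p = 0.61).

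The other member with an unadjusted p under 0.05 was TRIM71, at 53.6 and 46.7 CPM in siEDC4 1 and 2, against 62.6 and 68.8 CPM in siNC 1 and 2 (-0.39 ± 0.14, adjusted p = 0.35, edgeR). It passed with the batch as a block (adjusted p = 0.012, edgeR). With siEDC4 1 or siEDC4 2 left out, more members were called, and more of all genes had an unadjusted p under 0.05 (edgeR). There the lone siEDC4 library was assumed to vary like the siNC pair, whose libraries were kept apart. Those calls are therefore not read as a response of the members. Over all members the log2 fold change ran from -0.46 to 0.38 (RNF182), with a median of -0.01, -0.02 for TRIM and -0.001 for RNF genes. The members summed to 6894 and 6922 CPM in siEDC4, against 7050 and 7130 CPM in siNC.

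**Figure D5:**
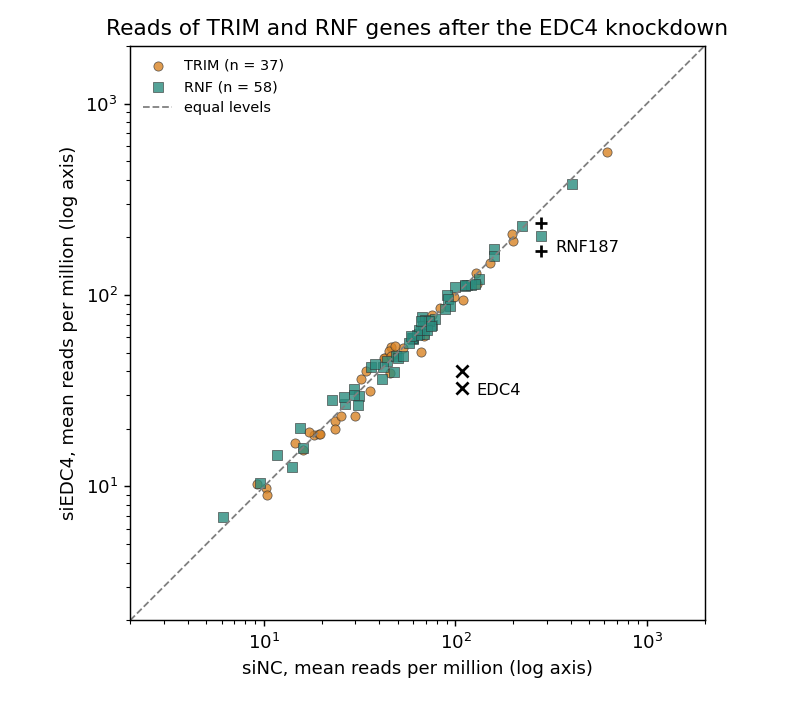
Mean CPM of 37 TRIM and 58 RNF genes in siEDC4 (vertical axis) and siNC (horizontal axis), n = 2 libraries each, on log axes; crosses mark EDC4 and plus signs RNF187 in each siEDC4 library. The members lie along the dashed line of equal levels, with RNF187 under it and EDC4 far under it.

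Editing after the knockdown gave no call among members or over all genes (edgeR; 0% of 9157 genes for A-to-I and 0% of 9646 for C-to-U). The median A-to-I score of members was 1.802% and 1.55% in siEDC4, against 1.23% and 1.43% in siNC. For C-to-U it was 1.87% and 1.82% in siEDC4, against 2.103% and 1.695% in siNC. The C-to-U medians of the groups overlapped. For A-to-I, 86 members were tested and 3 had an unadjusted p under 0.05, all with higher scores in siEDC4 (edgeR), against 5.36% of all genes at that p, so that the members were not above the background. For C-to-U, 88 were tested and none did, against 3.91% of all genes. With limma 3 of 87 members had an unadjusted p under 0.05 for A-to-I, 2 of them higher in siEDC4, against 9.09% of all genes. For C-to-U 4 of 88 did, 1 of them higher, against 6.62% of all genes.

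The 3 A-to-I members by edgeR were RNF7, RNF187 and RNF11, named after their values were seen. RNF11, an adaptor of HECT ligases, had A-to-I scores of 8.94% and 11.4% in siEDC4, against 4.296% and 5.56% in siNC (log2 odds ratio 1.13 ± 0.35, adjusted p = 0.84, edgeR). RNF187 had 0.967% and 1.55%, against 0.639% and 0.429%, and RNF7 had 2.29% and 3.67%, against 1.32% and 0%. None overlapped between the groups, which largely follows from picking them by p, and none passed the adjustment.

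Among members with at least 100 reads, the highest A-to-I scores in siNC were those of RNF125, TRIM32, TRIM23 and RNF111. RNF125, a ligase of RIG-I, had 5.204% and 9.43% in siEDC4, against 10.6% and 3.95% in siNC, so that the groups overlapped. TRIM32 had 7.41% and 6.62% in siEDC4, against 6.397% and 5.75% in siNC. TRIM23 had 7.52% and 5.91%, against 5.17% and 5.88%, and RNF111 had 4.15% and 5.45%, against 5.296% and 5.096%. None of the 4 passed, and each score rested on 9 to 24 edited reads.

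For C-to-U the highest in siNC were TRIM14, RNF141, RNF11 and TRIM2. TRIM14 had 4.92% and 5.42% in siEDC4, against 8.68% and 7.94% in siNC, without overlap and without a call (log2 odds ratio -0.74 ± 0.43, adjusted p = 1, edgeR). RNF141 had 8.24% and 10.7% in siEDC4, against 5.78% and 9.603% in siNC, and RNF11 had 9.32% and 6.62%, against 7.21% and 7.94%. TRIM2 had 6.76% and 9.06%, against 5.67% and 6.84%. The groups of RNF141, RNF11 and TRIM2 overlapped.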

How the data were processed

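The authors deposited 1 table of raw gene counts for the sort and 4 editing tables (A-to-I and C-to-U, sort and knockdown). The submitters' processing notes name STAR 2.7.9a and featureCounts 2.0.1, with cutadapt 1.18 and FastQC 0.11.9, and build hg38. RNA was taken up in TRIzol, per the labels' protocols; the sources used here give no site calling, annotation or strand setting. Per the file headers, each editing table holds a count of edited reads, reads per gene, treated as estimated counts and rounded because 3 broken lines (ANK2, left out) hold values that are not whole, and the editing score, a fraction equal to edited reads over reads, as the authors deposited it.

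Members and gene lists were chosen with earlier results of these data known. Counts were tested with edgeR 4.0.16 (TMM, filterByExpr, quasi-likelihood test, Benjamini-Hochberg over all genes tested, threshold 0.05). Edited shares were tested with edgeR on edited and unedited reads with an effect per library, for genes edited in 2 or more libraries. DESeq2 1.42.0 and limma 3.58.1 were alternatives, with leave-one-out, filters, library-size scaling, centring and a batch block. The procedure was also tested on simulated data. Scripts ran in R 4.3.3 and Python 3.11.15. Intervals are exact 95% ones for a ratio of shares and cover counting error only; floors use 3 counts.

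The labels give each library a batch number, 1 or 2, shared across groups, so the numbers pair libraries. Deviations from the group means correlated by 0.047 between same-numbered libraries over 18745 genes of the sort and by -0.035 over 10641 of the knockdown.

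Named members were a fixed list of known roles; the 8 largest rises and falls in the sort at a mean of 10 CPM in a group; the 5 largest edited-share changes each way with at least 100 reads in each group; up to 6 called members each way after knockdown; the 4 highest siNC scores per editor where none was called; and the 3 highest levels per length in each family. Other names were chosen after their values were seen. Base composition used 1 coding transcript a gene from GENCODE v29, found for all 143 members.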

Additional observations from a re-analysis of the deposited data

How the results depend on the processing

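Many edited shares rest on few edited reads, and the size of the TRIM and RNF difference moved with the sorted library left out. Library-size scaling moved the median of all genes in the sort to -0.23 and of members to -0.21. With it 30 members were higher and 47 lower of 110, against 22.7% higher and 36.9% lower of all genes tested. The family comparison under DESeq2, no filter, the block and leave-one-out was added after seeing the data. Where a value below differs from the reported one, the cause was not tested.

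Centring the libraries left 11 members higher and 10 lower for A-to-I (TRIM 1 and 2, RNF 10 and 8) and 8 higher and 3 lower for C-to-U (TRIM 1 and 1, RNF 7 and 2). limma with either pseudocount gave 2 lower for A-to-I (TRIM 1, RNF 1) and 4 for C-to-U (TRIM 2, RNF 2). Within the fixed list of known roles, centred A-to-I log2 odds ratios turned negative for RNF213 (-0.75), RNF40 (-0.70), RNF7 (-0.945), TRIM25 (-0.11), TRIM5 (-0.74) and TRIM71 (-0.38). Of these RNF213, RNF40 and RNF7 were called lower (adjusted p = 0.00077, 0.00014 and 0.018, edgeR). Centred C-to-U ones turned negative for RNF213 (-1.895), RNF40 (-1.64), RNF43 (-1.05), TRIM21 (-0.44), TRIM24 (-0.13), TRIM25 (-0.275), TRIM5 (-1.85) and TRIM71 (-1.52). Of these RNF213 and TRIM71 were called lower (adjusted p = 0.016 and 0.0012, edgeR). Outside that list some members turned negative with either editor and others stayed positive. RNF10 (-0.73) and TRIM65 (-0.84) were called lower for A-to-I (adjusted p = 0.0068 and 0.0035, edgeR). TRIM5 C-to-U was also negative with limma (-0.18, and -0.23 with the lower pseudocount).

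Knockdown calls lower were 0 with 4 libraries and 0 with DESeq2. RNF125 A-to-I after knockdown was 0.006 with 4 libraries, 0.11 with limma and 0.019 with the replicate block. With the replicate block, knockdown calls lower were 2, RNF187 and TRIM71; in the sort TRIM24, TRIM56, TRIM62 and RNF128 gained and RNF7 lost its call, RNF135 and RNF43 (A-to-I, adjusted p = 0.051 and 0.12, edgeR) and TRIM71 (C-to-U, 0.088) lost theirs, and RNF187 and RNF24 (A-to-I) and RNF26 (C-to-U) gained one. The block changed no other call of a member. With the block the family difference was -0.25.

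Leaving out 1 library at a time, sort calls ran from 28 to 40 higher and 23 to 45 lower (TRIM 11 to 14 and 8 to 20, RNF 17 to 26 and 15 to 25). A-to-I higher calls ran from 70 to 74 (TRIM 27 to 28, RNF 42 to 47) and C-to-U ones from 49 to 63 (TRIM 15 to 23, RNF 34 to 41). Knockdown read calls of members grew with siEDC4 1 or siEDC4 2 left out, as did low p-values over all genes. The family difference ran from -0.402 to -0.056. Named genes that changed sign were RNF40 (-0.107 to 0.886) and TRIM5 (-1.189 to 0.778) for sort C-to-U, RNF111 (-0.336 to 0.073) and RNF125 (-0.603 to 0.91) for knockdown A-to-I, and RNF11 (-0.206 to 0.327) and RNF141 (-0.02 to 0.767) for knockdown C-to-U.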
